A study of Mus musculus with 56 samples.

Results

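The comparison of oleic acid (OA) with physiological serum in mouse lung at the earliest times, 1 and 1.5 h after injection, took in 13 of the 35 mice of the series and 22 of its 60 microarrays. The mice were female C57BL/6J of 7 weeks, anaesthetized with xylazine and ketamine and injected in the tail vein with a volume of 20 µl, either OA, which came to 1.2 µl/g, or physiological serum. The OA group held 10 mice on 18 microarrays, of which 4 mice were killed at 1 h and 6 at 1.5 h. The serum group held 3 mice on 4 microarrays, of which 2 mice were killed at 1 h and 1 at 1.5 h. The titles of the OA microarrays carry an L number, 2 or 3, called lot here. Serum samples carry none, so lot cannot be told apart from treatment. The treatment text of the serum samples in the labels repeats the wording of the OA injection, so their group and time were taken from their source names. That the 2 serum microarrays at 1 h are 2 mice and those at 1.5 h are 1 mouse was read from the study's design, and the 3 serum mice rest on it. Members were chosen by treatment and time alone, and 1 further OA microarray at 1.5 h, whose mouse the labels do not settle, was left out. RNA of the whole smallest lung was hybridized as radioactively labelled cDNA to MUSV29K nylon membranes, which carry spotted cDNA clones. The question of the comparison is which transcripts of the lung already differ from those of a sham injection when the injury begins.

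OA is a fatty acid that, given into a vein, reaches the lung capillaries first and injures their endothelium, so that plasma leaks into the interstitium and the alveoli. In the first hour after such an insult, cells induce immediate early genes without new protein synthesis, and Toll-like receptors, the NF-kB pathway and the MAP kinase cascades drive the transcription of chemokines and cytokines, which draw in neutrophils. Adhesion molecules of the endothelium, the ion pumps and surfactant cells of the alveolar epithelium, and the enzymes that take up and burn fatty acids are the other genes for which this model is commonly examined.

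Levels are log2 of the quantile-normalized spot signal, averaged over the microarrays of a mouse, and a difference is OA minus serum on that scale with the time point as a block, given with its standard error (SE). A clone was called at an adjusted p under 0.05 by limma with Benjamini-Hochberg adjustment over 7625 clones. By that rule 2756 clones (36.1%) were called, 1529 higher (20.1%) and 1227 lower (16.1%) in OA mice, and 45.5% had an unadjusted p under 0.05. Above the empty spots, that is with a mean level over 9.04, the 95th percentile of 512 spots that carry no clone, lay 2365 clones of 1961 gene symbols, and 813 of them (34.4%) were called. These were 421 clones of 390 symbols higher in OA (17.8%) and 392 clones of 371 symbols lower (16.6%). Calls were 51.8% higher among these clones, 17.4% with each microarray centred on its median, where 198 were higher and 943 lower, and 41.2% with quantile normalization over the clones alone, with 331 higher and 473 lower. Scaled to the CG03 spots, the median of all clones moved to 1.75 and 2208 clones were called higher against 1 lower, so every direction given here is relative to the bulk of the spots. This level filter takes the mean of the OA mean and the serum mean, so a clone bright in OA mice alone or in serum mice alone can pass it. For such a clone, passing the filter and being called are not independent. Every gene described here comes from these 2365 clones unless it is said to be dim. Levels of different clones are not comparable with each other, since spots differ in the cDNA they carry.

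The spots that should not respond to treatment moved as often as the clones. Among the empty spots 193 (37.7%) reached the p of the last called clone, 16 higher and 177 lower in OA mice, and among the 192 CG03 spots, an Arabidopsis cDNA used as a negative control, 157 (81.8%) did so, all of them lower. The median difference was -0.24 for empty spots, with 95% of them between -1.55 and 0.76, and -0.99 for CG03 spots, with a range from -2.59 to -0.09. Clones above the empty spots had a median of -0.01, with 95% between -1.06 and 1.42. A call on its own therefore does not set a clone apart from the control spots here. Any difference given below that lies between -1.55 and 0.76 is within that range of the empty spots, also where it was called. This holds for most of the falls. Of the called clones above the empty spots, 178 lay above that 95% range of the empty spots and 12 above the highest of them, 3.14. On the other side 8 lay below the range, 1 below the lowest empty spot, -2.25, and 0 below the lowest CG03 spot, -2.59.

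**Figure D1:**
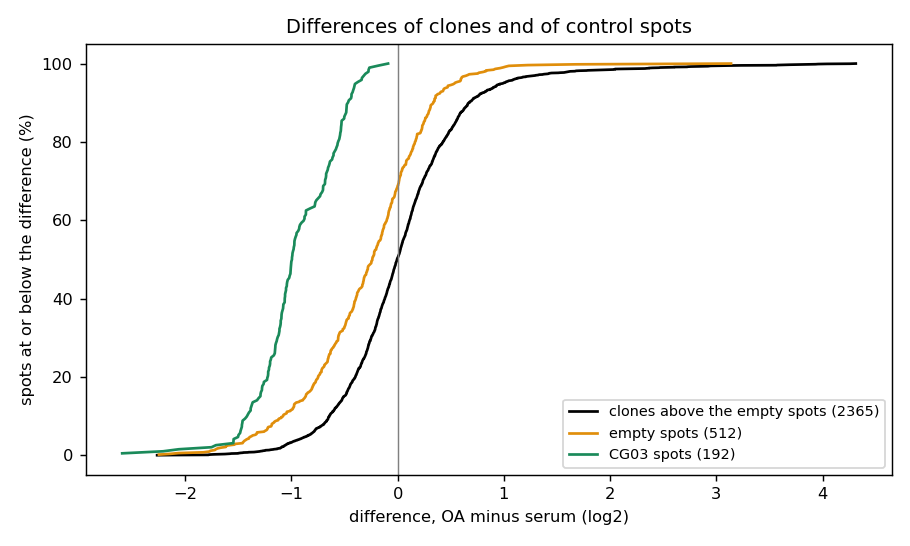
Cumulative share of spots (vertical axis, percent) at or below a given difference of OA minus serum (horizontal axis, log2) for clones above the empty spots, empty spots and CG03 spots. The CG03 curve lies to the left of 0 throughout, with a median of -0.99, and the clone curve runs further to the right than that of the empty spots, up to 4.31 against 3.14.

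The membranes also differed between the groups before normalization. The median log2 signal of the OA mice ran from 7.51 over a median of 8.25 to 8.77, against 7.47, 7.48 and 7.98 in the serum mice, a difference of 0.60 (two-sided exact permutation test within time points, p = 0.0667). The CG03 spots were dimmer in OA mice, 10.9 to 11.7 against 12.4 to 12.8, by 1.23 on the log2 scale (p = 0.00952, the smallest that the 105 arrangements allow). Of the 18 microarrays with a second one of the same mouse, only 3 correlated best with that second one, once the mean of their treatment group was subtracted. The deviations of the 2 serum microarrays at 1.5 h from the mean of the 4 serum microarrays correlated at -0.46 across clones. Subtracting a mean of only 4 microarrays pushes such correlations below 0, so that sign is no measure of disagreement. Without subtraction, levels on the 2 microarrays of a mouse correlated at 0.85 to 0.93. Where a gene had several clones above the empty spots, the differences of its 2 brightest clones correlated at r = 0.52 over 303 genes, and among the 43 genes with both called, 34 moved the same way. Of the markers of lung tissue, surfactant protein D (Sftpd), made by alveolar type II cells, stood between 13.11 and 13.92 in all 13 mice, and none of the 3 clones for heart muscle genes was above the empty spots.

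Among the 12 genes with the largest rises were Dlg7, Cklf, Cherp, Prei3, Slc24a6, Q3U0Y7MOUSE, Ttc9c, A4galt, Jub and Bpnt1, and every OA mouse was above every serum mouse for each of the 12 (of all clones above the empty spots 26.4% did not overlap between the groups, 12.9% with OA higher). None of the 12 rose above the 95th percentile of the empty spots on any of the 4 serum microarrays, so the serum level is a bound, and the rise is given as at least so many fold over the higher of that percentile and the clone's own signal, on each serum membrane. The choice of the largest differences fixes that these genes lead, so their rank is a description. They passed the level filter through their OA mice alone, so passing it and rising are not independent.

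Dlg7, a protein of the mitotic spindle, had the largest difference. Its level was 6.78, 7.23 and 7.97 in the serum mice and ran from 10.75 over 11.53 to 12.63 in the OA mice, 4.31 ± 0.39 (SE) higher and at least 4.8-fold (limma adjusted p = 6.84e-06). A second Dlg7 clone differed by 3.57 and was also called, while a dim clone of the gene was at 0.05 with an adjusted p of 0.842. Cklf, the chemokine-like factor, had 2 clones that both rose. For the first, serum mice stood at 7.03, 7.17 and 7.91 and OA mice between 10.18 and 12.90, a difference of 4.26 ± 0.45 and at least 4.65-fold (limma adjusted p = 2.24e-05). For the second, serum mice stood at 8.07, 8.36 and 9.16 and OA mice between 11.13 and 13.64, a difference of 3.90 and at least 8.3-fold. The lowest OA mouse was above the highest serum mouse in both clones.

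Cherp, an endoplasmic reticulum protein named for calcium homeostasis, went from 7.50, 8.69 and 8.99 to between 10.29 and 13.38, at least 7.49-fold (limma adjusted p = 9.27e-05). As for Dlg7, its lowest OA mouse was above its highest serum mouse by more than 1 on the log2 scale. A further 7 genes had differences from 3.07 to 3.77. Prei3, now named Mob4, a Mob family protein, rose at least 7.19-fold, and Q3U0Y7MOUSE, a clone that carries only a protein entry name, at least 5.97-fold. A4galt, which makes the glycolipid Gb3, stood at 8.21, 8.31 and 8.33 in serum mice and between 10.59 and 12.57 in OA mice, at least 4.34-fold, and its second clone differed by 2.73 and was also called. Jub (Ajuba), a LIM domain protein of cell junctions, rose at least 4.11-fold, Ttc9c at least 3.82-fold, and Slc24a6 (Slc8b1), the sodium-calcium exchanger of mitochondria, at least 3.42-fold. Bpnt1, a nucleotidase that breaks down bisphosphate nucleotides, rose at least 3.73-fold on 1 clone, but its other clone was at -0.18 with an adjusted p of 0.452. All 12 calls stayed when each of the 13 mice was left out in turn, and 8 of the 12 were lost when only the 1.5 h mice were used, where the serum side is a single mouse.

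**Figure D2:**
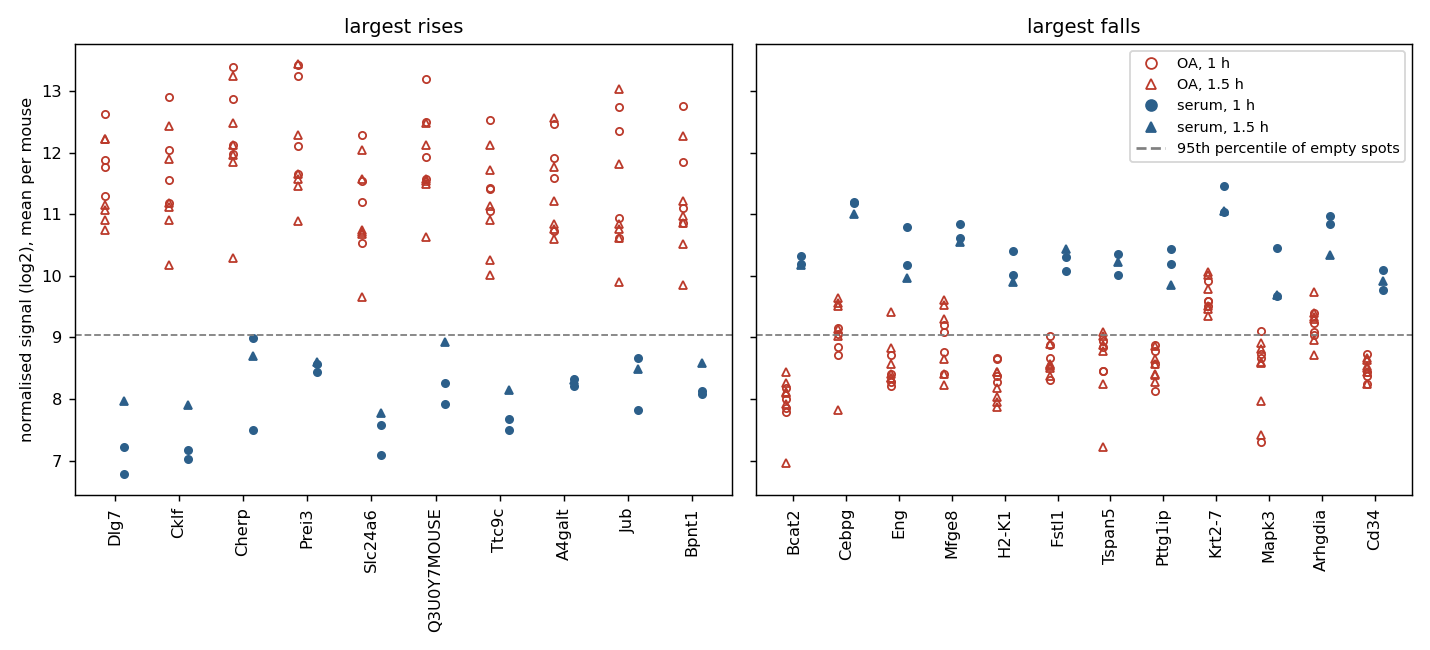
Normalised signal (vertical axis, log2, mean per mouse) of the genes named among the largest rises and the largest falls, with 1 point per OA or serum mouse and the dashed line at the 9.04 that marks the empty spots. Serum mice lie under the line for the genes that rose, and the 2 groups do not overlap for any gene shown.

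Promoters are printed for 4 genes, chosen after their values were seen: 3 immediate early genes that rose, described next, and Cklf, as the leading gene that belongs to the chemokine list. They come from RefSeq (GRCm38.p6) and run from 250 bases before the transcription start to 50 after it, 5′ to 3′ on the strand of the gene. Capitals mark matches, on either strand and joined where they overlap, to the TATA box TATAAA, the cAMP response element TGACGTCA, the AP-1 site TGANTCA, the NF-kB site, the heat shock element GAANNTTC and the metal response element TGCNCNC.
Fos: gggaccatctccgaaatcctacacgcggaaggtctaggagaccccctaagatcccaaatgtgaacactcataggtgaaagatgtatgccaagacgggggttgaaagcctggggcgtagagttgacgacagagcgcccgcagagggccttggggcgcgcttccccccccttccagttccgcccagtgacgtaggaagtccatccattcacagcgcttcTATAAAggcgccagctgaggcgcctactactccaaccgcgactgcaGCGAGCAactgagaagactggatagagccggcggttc
Zfp36l1: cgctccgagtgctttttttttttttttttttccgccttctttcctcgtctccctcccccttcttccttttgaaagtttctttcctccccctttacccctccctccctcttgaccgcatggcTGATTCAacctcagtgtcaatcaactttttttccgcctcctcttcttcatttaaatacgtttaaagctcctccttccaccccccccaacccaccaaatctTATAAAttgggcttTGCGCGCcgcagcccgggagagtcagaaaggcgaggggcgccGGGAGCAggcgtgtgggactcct
Dusp1: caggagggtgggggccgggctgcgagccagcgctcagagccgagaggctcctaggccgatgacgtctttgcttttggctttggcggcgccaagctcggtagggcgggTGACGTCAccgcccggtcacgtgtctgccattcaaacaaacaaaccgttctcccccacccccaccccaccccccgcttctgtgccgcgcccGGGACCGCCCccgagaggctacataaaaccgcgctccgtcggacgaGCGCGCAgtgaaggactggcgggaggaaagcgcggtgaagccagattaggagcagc
Cklf: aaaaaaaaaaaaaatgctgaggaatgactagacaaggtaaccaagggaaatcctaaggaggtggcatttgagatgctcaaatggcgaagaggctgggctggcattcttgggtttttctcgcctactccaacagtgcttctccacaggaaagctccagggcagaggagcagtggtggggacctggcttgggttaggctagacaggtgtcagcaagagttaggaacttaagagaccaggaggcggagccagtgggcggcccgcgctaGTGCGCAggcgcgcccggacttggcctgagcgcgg
The Fos window is chr12:85473640-85473939 on the + strand, that of Zfp36l1 chr12:80112964-80113263 on the - strand, that of Dusp1 chr17:26508423-26508722 on the - strand and that of Cklf chr8:104250611-104250910 on the + strand. Fos holds a TATA box and a metal response element, and Zfp36l1 a TATA box, an AP-1 site and 2 metal response elements. Dusp1 holds a cAMP response element, an NF-kB site, and a metal response element, and Cklf holds a single metal response element. Among all 32851 promoters of that length, 13.6% hold the TATA box, 1.79% the cAMP response element, 7.81% the AP-1 site, 20.7% the NF-kB site, 7.86% the heat shock element and 51% the metal response element. Of the 12 leading genes 7 matched a promoter entry, and of these 4 held the metal response element, 1 the AP-1 site and 1 the NF-kB site. A match of letters is a description of the window and not evidence of a bound factor.

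Of the immediate early genes, those that need no new protein to be induced, 20 clones of 17 genes were above the empty spots, of which 6 rose (30%), 2 fell (10%) and 12 did not pass the test, with a median difference of 0.27. Higher and lower calls made up 17.8% and 16.6% of all clones above the empty spots. Fos, the transcription factor subunit of AP-1, rose most. Its serum mice stood at 8.55, 9.07 and 9.20, on no membrane above the empty-spot percentile of that membrane, and its OA mice ran from 10.10 over 10.54 to 14.01, at least 2.98-fold (1.85 ± 0.63, limma adjusted p = 0.0359). The groups did not overlap, and the highest value belongs to 1 mouse at 1.5 h whose next neighbour in that group was at 10.9. The call of Fos was lost without any of the 3 serum mice and without 3 of the OA mice, while its difference stayed between 1.62 and 2.04. Of 22 tested settings 17 kept the call. Among those that lost it were the fitted signal, values under the empty-spot percentile set to it, and the median intensity of a mouse as covariate. Zfp36l1, which destabilizes AU-rich mRNAs, stood at 8.83, 9.36 and 9.66 in serum and ran from 9.43 to 11.03 in OA mice, 1.13 ± 0.31 higher with overlap (adjusted p = 0.0121), and without the 1.5 h serum mouse it was 0.87 higher and not called. A second, dim Zfp36l1 clone did not overlap and differed by 2.34 ± 0.24 (adjusted p = 1.62e-05).

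Dusp1, the phosphatase that switches off p38 and JNK kinases, was at 8.67, 9.00 and 9.49 in serum mice and between 9.50 and 11.29 in OA mice, 1.07 ± 0.32 higher (limma adjusted p = 0.0188). Ctgf, a matrix-associated growth factor, was at 8.93, 9.08 and 10.10 in serum and between 9.88 and 10.81 in OA mice, 0.98 ± 0.26 higher (adjusted p = 0.00952). The lowest OA mouse of Dusp1 lay just above the highest serum mouse, and for Ctgf the groups overlapped. Both calls were lost without the second 1 h serum mouse, with differences of 0.83 and 0.78, and without the 1.5 h serum mouse, with 1.18 and 0.72. The other rises were single clones of Btg1 (0.58), an antiproliferative gene, and of Errfi1 (0.82), a feedback inhibitor of the EGF receptor, whose 2 further clones, at 0.37 and 0.48, did not pass. The Errfi1 call was lost without the second 1 h serum mouse (0.66), the 1.5 h serum mouse (0.62) or any OA mouse at 1.5 h. Ier3, a stress response gene, fell by 0.77, and Txnip, the thioredoxin-interacting protein, fell by 0.69. Klf2, Klf4, Id2, Id3, Sgk, Mcl1 and Mafk were above the empty spots and did not pass the test. The count of rises in this list rested on few serum mice: without the 1.5 h serum mouse 0 rose and 1 fell, when 255 of all 2365 clones above the empty spots were called higher and 269 lower, and without the second 1 h serum mouse 1 rose and 2 fell, when 310 were called higher and 278 lower.

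Of the chemokines, cytokines and their receptors, 22 clones of 20 genes were above the empty spots. Of these clones 5 rose (22.7%) and none fell, with a median of 0.14. Among all clones above the empty spots 17.8% rose and 16.6% fell. The rises were both Cklf clones and single clones of Il16, Cxcl15 and Ccl24. The Cklf clones and that of Il16 passed the level filter through their OA mice alone, so their place in this list and their calls are not independent. Il16, a chemoattractant for CD4 cells, stood at 8.60, 8.74 and 8.82 in serum mice and between 9.20 and 10.39 in OA mice, 1.00 ± 0.20 higher and at least 1.33-fold (limma adjusted p = 0.00161), and its second, dim clone was at -0.26 without a call. Cxcl15, lungkine, a neutrophil attractant of the airway and alveolar epithelium, was at 11.68, 11.88 and 11.99 in serum and between 12.03 and 13.21 in OA mice, 0.93 ± 0.25 higher (adjusted p = 0.0111). Ccl24, an eosinophil attractant, was 0.70 ± 0.19 higher (adjusted p = 0.0126) with overlap of the groups. The calls of Cxcl15 and Ccl24 were lost without the first 1 h serum mouse, where the differences were 0.82 and 0.58, and a dim Cxcl15 clone was at 0.31 without a call.

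The chemokines of the study's own list for the early stage that lay above the empty spots were not called. Cxcl5 differed by 0.14 (adjusted p = 0.391), Ccl6 by 0.14 (adjusted p = 0.683) and Ccl22 by 0.06 (adjusted p = 0.765), each with overlapping groups. Of 34 clones for the 24 chemokine, cytokine and MAP kinase genes of that list, 8 were above the empty spots, with Dusp1 higher, Rras lower and 6 not called. That made 25% called, against 34.4% of all clones above the empty spots. Of its dim clones 5 were called higher and 4 lower. That list was drawn up on these same samples, so its direction is not independent evidence. The study drew it from a test between time groups of OA values less the serum mean. On the microarrays OA was not tested there against serum at these times, so the calls given here answer another question. The study's other early evidence is real-time PCR, as ratios of OA to serum, and histology. Tnf was highest there at 1.5 h, when neutrophils were also seen in the alveolar wall. The clones for Il4 and Il10 lay under the empty-spot level in both groups, so no fold is given for them, and no clone carried the symbol Tnf or Il6.

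Of the Toll-like receptor and NF-kB genes 8 clones were above the empty spots and 1 was called (12.5%, against 34.4% of all such clones). Tlr9, the receptor for unmethylated CpG DNA, stood at 7.29, 8.00 and 8.37 in serum mice and between 9.64 and 10.96 in OA mice, 2.55 ± 0.25 higher and at least 2.01-fold (limma adjusted p = 1.26e-05). It passed the level filter through its OA mice alone, so its place among the 8 and its call are not independent. Both clones of Nfkbia, the inhibitor that NF-kB itself induces, were at 0.01 and 0.25, and Ikbkb, Irak1, Birc3, Chuk and Map3k7ip2 lay between -0.27 and 0.24, none of them called. In the MAP kinase cascade 22 clones were above the empty spots, with 5 higher (22.7%) and 4 lower (18.2%), against 17.8% and 16.6% of all clones above the empty spots. Mapk3 (ERK1) fell from 9.67, 9.69 and 10.46 in serum mice to between 7.31 and 9.10 in OA mice, a difference of -1.49 ± 0.37 (adjusted p = 0.00739). Dusp6, an ERK phosphatase, rose by 0.46 and Rasa1, a Ras GTPase-activating protein, by 0.64, whereas Rps6ka1, an ERK target kinase, fell by 0.65. Grb2, the adaptor, had 1 clone up by 0.63 and 1 down by 0.77.

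Markers of the inflammatory cells that enter the lung gave few calls above the empty spots, where few of them lay. Of 5 neutrophil clones there none rose, against 17.8% of all clones above the empty spots. S100a8 and S100a9, the subunits of calprotectin and the most abundant proteins of neutrophil cytosol, were named after their values were seen. S100a8 stood at 10.63, 11.04 and 11.30 in serum mice and ran from 10.72 over 11.87 to 14.24 in OA mice, a difference of 1.00 ± 0.58 (limma adjusted p = 0.201). S100a9 stood at 11.14, 11.15 and 11.70 and ran from 11.38 over 11.87 to 14.01, a difference of 0.78 ± 0.45 (adjusted p = 0.194). The OA mice thus overlapped the serum mice and reached far above them at the top. Lcn2, a neutrophil granule protein, was at -1.27 with an adjusted p of 0.155, and Ncf4, a subunit of the phagocyte oxidase, fell by 0.67 (adjusted p = 0.0045), a call lost without the 1.5 h serum mouse (-0.55). The summed signal of the list was 13.2 to 15.3 in OA mice and 13.3 to 13.5 in serum mice (log2).

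None of 4 macrophage clones (Apoe, Ctsb, Ctsd and Cd9, summed signal 13.7 to 14.0 in OA and 13.6 to 13.8 in serum mice) and neither of 2 T cell clones (Cd6 and Thy1) was called. Of the dim clones 8 were called higher and 2 lower in the macrophage list, and 5 higher and 2 lower in the T cell list. In the B cell list 6 dim clones were called higher and 1 lower, and in the neutrophil list 1 higher and 2 lower. Of 6 B cell clones Cd79b, a subunit of the B cell receptor, was lower, at 8.29 to 9.30 in OA mice against 9.52, 9.75 and 9.97 (-1.09 ± 0.19, limma adjusted p = 0.00063). This clone lies in the last print column of its block, where clones and unnamed spots were shifted downward, and with print positions centred it was at -0.41 and not called (adjusted p = 0.0819). A second, dim Cd79b clone was 0.71 lower and called. Of 17 red cell clones 2 were called higher and 3 lower (11.8% and 17.6%, against 17.8% and 16.6% of all clones above the empty spots). All 12 clones of Hba-a1 and Hbb-b1, the chains of adult haemoglobin, reached the ceiling of 21815, the highest signal found on 20 of the 22 microarrays, on at least 1 of them, 11 of them on a serum microarray, so no size is given for their differences here. The 3 calls in the lower direction were clones of these genes in the last print column, and 1 of the 2 higher calls was a Hba-a1 clone. The other rise was Slc4a1, the anion exchanger of red cells, by 0.51, a call lost without the 1.5 h serum mouse (0.41). The summed signal of the list, which the ceiling limits, was 17.8 to 17.9 in OA and 17.9 to 18.0 in serum mice. Since whole lung was measured, fewer cells of a type and less RNA per cell cannot be told apart.

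Endothelial genes mark the cells that meet the injected OA first. Of 20 clones of 16 genes above the empty spots, 7 fell (35%) and 1 rose (5%), with a median of -0.30. The 7 that fell did not overlap between the groups. Of all clones above the empty spots 13.5% did not overlap with OA lower. Among all clones above the empty spots 16.6% fell and 17.8% rose, with a median of -0.01, and among the empty spots 34.6% passed the same p lower and 3.12% higher, with a median of -0.24. The counts of this list thus lie near those of spots that carry no clone. Endoglin (Eng), the TGF-beta co-receptor of endothelium, fell on both of its clones: serum mice stood at 9.97, 10.17 and 10.79 and OA mice between 8.21 and 9.42 on the first (-1.78 ± 0.24, limma adjusted p = 0.000108), and the second differed by -1.05 ± 0.26 (adjusted p = 0.0075). Cd34, a sialomucin of capillary endothelium, stood at 9.77, 9.92 and 10.09 in serum and between 8.24 and 8.73 in OA mice (-1.46 ± 0.13, adjusted p = 4.92e-06), while a second, dim clone was at -0.22 and not called. The first Cd34 clone lies in the last print column and was at -0.60, still called, with print positions centred. Icam2, an adhesion molecule that endothelium holds constitutively, stood at 10.38, 10.62 and 10.68 in serum and between 8.85 and 9.95 in OA mice (-1.28 ± 0.18, adjusted p = 0.000127). Plvap, the protein of endothelial fenestral diaphragms, fell by 1.18 ± 0.31 (adjusted p = 0.01), a call lost without the second 1 h serum mouse (-0.92) or the 1.5 h serum mouse (-1.21).

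Gja4, a connexin of arterial endothelium, fell by 0.91 (adjusted p = 0.00184) and Ace, the angiotensin-converting enzyme carried by lung capillaries, by 0.81 (adjusted p = 0.00173). The gene of this list that rose was Edg1, the sphingosine 1-phosphate receptor that tightens endothelial junctions, at 8.60, 9.34 and 9.42 in serum and between 9.33 and 10.26 in OA mice (0.80 ± 0.24, limma adjusted p = 0.018). Junction markers of the same cells gave values on both sides of 0 without a call: Cdh5 was at 0.35, Pecam1 at -0.08 and Cldn5 at -0.72, and Icam1 was at 0.20. The summed signal of the list overlapped between the groups, 15.4 to 16.0 in OA and 15.6 to 15.9 in serum mice. With the image signal at calculated diameter none of the 20 was called, with a median of -0.24. Scaled to the CG03 spots, which moved the median of all clones to 1.75, 13 of the 20 were higher and 0 lower, with a median of 1.00, or -0.74 relative to all clones.

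In the lung epithelium list 4 clones rose and 5 fell of 13 (30.8% and 38.5%, against 17.8% and 16.6% of all clones above the empty spots). Of the empty spots 3.12% passed the same p higher and 34.6% lower, so the share of falls lies near that of spots that carry no clone. Slc34a2, the phosphate carrier of alveolar type II cells, was among the most even rises, with 11.68, 11.69 and 12.11 in serum mice and 12.54 to 12.98 in OA mice (0.93 ± 0.12, limma adjusted p = 9.66e-05). Both clones of Aldh1a1, a retinal dehydrogenase, were higher, by 0.77 and 0.74, the first not called without the second 1 h serum mouse (0.78), the 1.5 h serum mouse (0.59) or 2 of the OA mice at 1 h. Sftpd fell by 0.45 ± 0.12 (adjusted p = 0.0113), Muc1, an epithelial surface mucin, by 0.48 and Pcyt1a, the rate-limiting enzyme of phosphatidylcholine synthesis, by 0.65. Among 9 clones for ion and water transport 2 rose and 1 fell (22.2% and 11.1%). Of the beta subunits of the sodium pump, Atp1b3 was 0.96 ± 0.33 higher (adjusted p = 0.0373) and 1 of 2 Atp1b1 clones 0.57 ± 0.14 higher (adjusted p = 0.00577). Under median centring the Atp1b1 clone turned to -0.27, and its call was lost without the 1.5 h serum mouse (0.45). That of Atp1b3 was lost without any of the 3 serum mice, at 0.75 to 1.09, and without 3 of the 4 OA mice at 1 h, at 0.91 to 0.94.

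Fatty acid metabolism held 22 clones above the empty spots, of which 4 rose (18.2%) and 8 fell (36.4%), with a median of -0.04. Of all clones above the empty spots 17.8% rose and 16.6% fell, and of the empty spots 3.12% passed the same p higher and 34.6% lower. The share of falls in this list thus lies near that of spots that carry no clone. Among the genes of breakdown, Hadha, the trifunctional enzyme of mitochondrial beta-oxidation, fell with little spread, from 10.66, 10.75 and 11.07 in serum mice to between 9.30 and 9.63 in OA mice (-1.41 ± 0.11, limma adjusted p = 2.95e-06). Acadl, the long-chain acyl-CoA dehydrogenase of the same pathway, rose from 8.18, 8.35 and 8.57 to between 9.47 and 10.60 (1.60 ± 0.21, at least 1.6-fold, adjusted p = 8.88e-05), and its dim second clone was 0.86 higher and also called. Hadha and Acadl were thus called in opposite directions, each under 21 of 22 settings. The fall of Hadha lies within the range of the empty spots given above, and its call was lost at the calculated diameter. Acadl was above the empty-spot percentile on 0 serum microarrays. The Acadl call was lost with values under that percentile set to it. A direction of the pathway as a whole was not tested. The 2 clones of Hadhsc, short-chain hydroxyacyl-CoA dehydrogenase, were called in opposite directions, at -0.62 and 0.43.

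Among the genes of activation and storage, Acsl4, which activates arachidonic and other polyunsaturated acids, rose from 10.71, 11.02 and 11.38 in serum mice to between 11.87 and 12.61 in OA mice (1.23 ± 0.16, limma adjusted p = 0.000105). Both clones of Fasn, fatty acid synthase, fell. The first stood at 9.54, 9.72 and 9.87 in serum and at 8.08 to 9.79 in OA mice (-1.29 ± 0.28, adjusted p = 0.00299), with 1 OA mouse at 1.5 h among the serum mice, and the second fell by 1.25 without overlap. The first lies in the last print column, and its call was lost with print positions centred (-0.56, adjusted p = 0.145) and with OA mice of lot 3 alone. Pnpla2, the triglyceride lipase ATGL, fell by 1.06, its inhibitor G0s2 by 0.78 on 1 of 2 clones, and Adfp, a lipid droplet coat protein, by 0.44. Elovl5, which elongates polyunsaturated acids, rose by 0.78, and Ppara, the receptor that senses fatty acids, was at 0.52 without a call.

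The 12 largest falls were Bcat2, Cebpg, Eng, Mfge8, H2-K1, Fstl1, Tspan5, Pttg1ip, Krt2-7, Mapk3, Arhgdia and Cd34. Bcat2, the mitochondrial aminotransferase of branched-chain amino acids, was the only called clone above the empty-spot level with a difference below that of all empty spots, at 10.18, 10.19 and 10.32 in serum mice and between 6.96 and 8.44 in OA mice (-2.26 ± 0.24, limma adjusted p = 2.02e-05). Cebpg, a transcription factor of the C/EBP family, was at 11.00, 11.18 and 11.19 against 7.83 to 9.63 (-2.10 ± 0.30, adjusted p = 0.000168). H2-K1, a classical class I histocompatibility antigen, was at 9.90, 10.02 and 10.40 against 7.87 to 8.67 (-1.73 ± 0.15, adjusted p = 4.92e-06). No OA mouse overlapped the serum mice in any of the 12 (13.5% of all clones above the empty spots did not overlap with OA lower). None of these calls was lost when a mouse was left out. At the calculated diameter the calls of Eng, Mapk3, Krt2-7 and Cd34 were lost, and that of Mapk3 also with OA mice of lot 3 alone. With 1.5 h mice alone, where the serum side is a single mouse, those of Cebpg, Eng, Mfge8, Tspan5, Krt2-7, Mapk3 and Arhgdia were lost. Mfge8, which bridges apoptotic cells to phagocytes, fell by 1.76, Fstl1, a secreted glycoprotein, by 1.63, and Arhgdia by 1.48.

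Position on the membrane moved with the falls. Each block of spots has 12 print columns, and the last of them had a median difference of -0.56 over 144 clones above the empty spots, with 3 called higher and 73 lower, while the medians of the other columns lay between -0.12 and 0.14. Spots without a gene name in the last column were at -0.60. That column holds 6.09% of the clones above the empty spots but 8 of the 12 largest falls: Bcat2, Cebpg, Mfge8, Fstl1, Tspan5, Pttg1ip, Krt2-7 and Cd34. Once each print position was centred on its median, 11 of the 12 falls were still called, at -1.58 for Bcat2, -0.91 for Cebpg, -0.60 for Cd34, -1.86 for Eng and -2.25 for H2-K1. Tspan5 was at -0.38 and no longer called (adjusted p = 0.0902), and its dim second clone was at 0.02. Of the genes named elsewhere, the same centring ended the calls of Zfp36l1 (0.73), Ctgf (0.56), Errfi1 (0.72), Cxcl15 (0.64), Ccl24 (0.47), Atp1b3 (0.82), the first Aldh1a1 clone (0.37), B2m (0.57), Pik3r1 (0.30) and Rpl18 (-0.41). H2-K1, Eng, Mapk3 and Arhgdia lie in other columns.

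**Figure D3:**
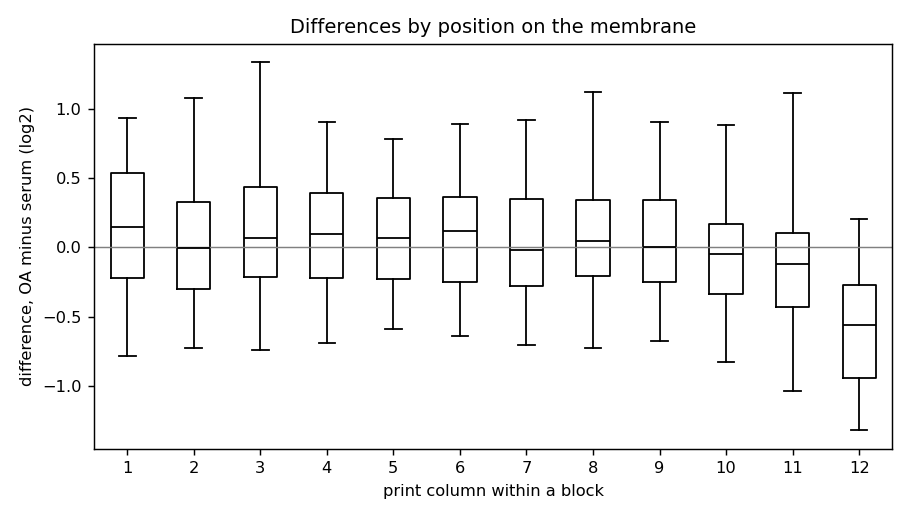
Difference of OA minus serum (vertical axis, log2) of clones above the empty spots by print column within a block (horizontal axis). The last column lies lowest, with a median of -0.56 over 144 clones, against medians between -0.12 and 0.14 elsewhere.

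Beyond the inflammatory lists, matrix and histocompatibility genes were examined. Of 33 fibroblast, matrix and smooth muscle clones 10 fell (30.3%) and 4 rose (12.1%), with a median of -0.18, against 16.6% and 17.8% of all clones above the empty spots and 34.6% and 3.12% of the empty spots. Those that fell included Dcn (decorin, -1.10 on 1 of its clones, and -1.03 without a call when the 1.5 h serum mouse was left out), Col6a2 (-0.77), Timp2 (-0.69), Mmp2 (-0.56) and Col1a1 (-0.43). Sparcl1, a matricellular protein, was the exception in size: it stood at 7.93, 8.12 and 8.40 in serum mice and between 10.40 and 11.60 in OA mice, 2.88 ± 0.25 higher and at least 3.32-fold (limma adjusted p = 4.92e-06), while its second, dim clone was at 0.05 and not called. Of 25 histocompatibility and interferon-regulated clones 8 fell (32%) and 3 rose (12%). All 4 Stat3 clones lay below 0, between -0.77 and -0.07, and 3 of them were called. Irf3, the factor that turns on type I interferon, fell by 0.77, and B2m, the light chain of class I molecules, had 1 clone higher by 0.84 and 1 at 0.16 without a call. The higher B2m clone turned to -0.03 under median centring and was 0.45 and not called without the second 1 h serum mouse.

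Genes of protein synthesis, respiration and protein breakdown form the last large lists. Of 86 clones for cytosolic ribosomal proteins 27 rose and 2 fell (31.4% and 2.33%, against 17.8% and 16.6% of all clones above the empty spots), with a median of 0.34. Rpl5 rose on 4 of its 6 clones, by 0.43, 0.52, 0.70 and 0.80, while Rpl18 fell by 1.27 in the last print column. The direction of this list depends on the scaling: with each microarray centred on its median 1 rose and 53 fell with a median of -0.50, and with quantile normalization over clones alone 3 rose and 12 fell with a median of -0.02. In the mitochondrial respiratory chain 7 of 64 clones rose and 8 fell (10.9% and 12.5%). Both Uqcrb clones were higher, by 1.04 and 1.03, and a Sdha clone, for the flavoprotein of succinate dehydrogenase, was lower by 0.98. That clone lies in the last print column and was at -0.25 and not called with print positions centred, and a second Sdha clone was at 0.16 and not called. In the proteasome 1 of 32 rose (3.12%) and 7 fell (21.9%), with Psmd8 lower by 1.05 and both Psmd2 clones lower, by 0.84 and 0.73.

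The stress lists are set against 17.8% higher and 16.6% lower among all clones above the empty spots. Of 43 heat shock and chaperone clones 6 rose and 6 fell (14% each), near those shares. Hsp90aa1, an inducible cytosolic chaperone, rose on 2 clones, by 0.61 and 0.63, and Canx, the calnexin of the endoplasmic reticulum, rose at least 1.96-fold with overlap of the groups (1.42 ± 0.31, limma adjusted p = 0.0032), while its second clone was at 0.16 and not called. Hspa5, the main chaperone of that compartment, had clones called both ways, at 0.93, 0.77 and -0.74, and a further clone at 0.24. Stip1, which links the cytosolic chaperones, fell by 0.81, a call lost with print positions centred (-0.40), and Cct7, a subunit of the chaperonin, by 0.74 on 1 clone, with its 2 other clones at -0.28 and -0.40 and not called. Among 34 antioxidant clones 2 rose and 5 fell (5.88% and 14.7%). Txn1 (thioredoxin) was higher by 0.65 and Gpx3, the extracellular glutathione peroxidase, lower by 1.00. Gpx3 lies in the last print column and was at -0.14 and not called with print positions centred. Of 13 hypoxia and glycolysis clones none rose and 23.1% fell. Gpi1 (-0.96, a call lost without any of the 3 serum mice), Ndrg1 (-0.78) and Tpi1 (-0.49) were lower. In the glucocorticoid response 3 of 15 clones rose (20%), Dusp1, Errfi1 and Pik3r1, and 6.67% fell. A Fkbp4 clone fell by 1.11 while its 2 other clones, at -0.16 and 0.04, did not. In the platelet and coagulation list both F11r clones fell, by 1.20 and 0.48, and 1 of 2 clones of Anxa5, an annexin that binds phosphatidylserine, rose by 0.58.

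At each time alone, 1847 clones (24.2%) were called at 1 h and 731 (9.59%) at 1.5 h, or 22.2% and 7.78% of those above the empty spots, where 6 OA mice were set against 1 serum mouse whose spread was taken from the other groups. No clone had a difference between the 2 times past the threshold in limma's test of that difference (0 of 7625 adjusted, 231 or 3.03% at an unadjusted p under 0.05). The size of the leading rises was 4.89 at 1 h and 3.41 at 1.5 h for Dlg7, and 4.82 and 3.38 for Cklf. Fos was 1.73 higher at 1 h and 2.02 at 1.5 h. Hadha was at -1.50 and -1.27, and the first Eng clone at -2.08 and -1.31. Both times gave the same sign for each of these genes. They were chosen by their difference over both times together, so that agreement is no separate evidence. The test of the difference between the times rests on 1 serum mouse at 1.5 h and cannot show that the sizes are alike.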

How the data were processed

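Whole-lung RNA of 13 mice was read from 22 of 60 nylon microarrays. Per the labels and methods, the authors quantified the 33P images with Bzscan2, and the deposited files give the intensity of 9984 spots per microarray on a linear scale, up to 28600. The methods state that sample data were corrected for neighbouring spots and background; whether the deposited columns used here hold corrected values is not given in the sources used here. The authors also deposited a table of log2 values, quantile normalized by them with NylonArray, which served as an alternative without a test.

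The image signal at constant diameter, with a floor of 1, was put on the log2 scale, quantile normalization was run across every spot of the 60 microarrays, and a mouse's microarrays were averaged. limma 3.58.1 in R 4.3.3 (lmFit and eBayes) fitted treatment with time as block, with Benjamini-Hochberg adjustment at 5% over 7625 clones, and 1647 spots without a gene name and the control spots were left out of the adjustment. The number of microarrays limits the precision. Replicates are separate mice, and the script was tested on simulated data. Symbols are those of the spot list. Named genes are the 12 largest rises and falls among called clones above the empty spots, up to 4 genes of each list, and the cytokines and early-stage genes that the study lists; a few of these are not reported here. The members and lists were chosen with earlier results of these data known. Alternatives covered normalization, signal type, floor, OA mice of a single lot, time, each mouse left out, array weights and the mouse as random block. A filter on spot quality marks was not run. Promoters come from RefSeq.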

Additional observations from a re-analysis of the deposited data

Results flagged for a closer look

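Among 188 groups of 4 or 6 OA mice examined for the named clones, 15 held a mouse whose gap to its nearest neighbour passed Dixon's 95% critical value, and chance gives about 1 in 20 groups. Mouse 4 at 1.5 h, with 1 microarray, gave 4 of them: Fos was at 14.0 there with the next mouse at 10.9, while Gpi1 (8.48), Cebpg (7.83) and Bcat2 (6.96) were at their lowest. Other mice at 1.5 h stood apart for Uqcrb, lowest at 9.44 in mouse 2, for Psma5, lowest at 8.47 in mouse 6, for Fasn, highest at 9.79 in mouse 6, and for F11r, highest at 9.00 in mouse 5. At 1 h, mouse 1 was lowest for Cxcl15 at 12.0 and highest for Cd6 at 9.96. Mouse 3 was lowest for Atp1b3 at 10.9 and highest for Hadha at 9.52. Mouse 4 was highest for Cxcl5 at 9.53 and for Fkbp4 at 9.65, and mouse 2 was lowest for Cct7 at 9.57.

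Spots that carry no gene name were left out of every comparison, yet 66 of them lay above the empty spots. Of these 21 reached the p of the last called clone, 14 higher and 7 lower in OA mice.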

How the results depend on the processing

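The 10 OA mice and 3 serum mice set the precision, and the leading rises are bounds because their serum signal was not above the empty spots. The 12 largest rises kept direction and call under each of 22 settings except the use of 1.5 h mice alone, where 8 lost the call, and 62 of 85 called named genes kept theirs without each mouse. Calls of 23 were lost without a serum mouse, of 51 at the calculated diameter and of 67 with 1.5 h mice alone. The causes were not tested.

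With each microarray centred on its median, 1862 clones were called lower, and above the empty spots 198 higher and 943 lower. The fitted signal gave 814 lower (260 above the empty spots), and a share of clones above the empty spots that was 16.4 percentage points higher in OA mice (exact permutation p = 0.0381). The calculated diameter gave 314 calls, 247 higher and 67 lower (94 and 27 above the empty spots). Values under the empty-spot percentile set to it gave 272, 163 and 109 (156 and 108). OA mice of lot 3 alone gave 1519, 889 and 630 (257 and 199), the 1 h mice alone 260 higher above the empty spots, and the 1.5 h mice alone 296, 237 and 59 (45 and 16). Leaving out 1 mouse gave 1847 to 2906 calls, 1041 to 1574 higher and 806 to 1332 lower (255 to 452 and 269 to 438), lowest without the 1.5 h serum mouse and highest without OA mouse 4 at 1.5 h.

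Chosen after seeing the data were CG03 scaling, centring of print positions, the median intensity of a mouse as covariate, and the serum microarrays at 1.5 h as separate mice, which gave 3113 calls. CG03 scaling gave 7362 calls, 7361 higher and 1 lower (2208 and 1). Signs turned under median centring for B2m (-0.030), Rps20 (-0.030), Atp1b1 (-0.27) and Apoe (-0.48), with the fitted signal for B2m (-0.49) and Hba-a1 (0.15), at the calculated diameter for B2m (-0.96) and Psmd4 (0.46), and in the authors' table for Hba-a1 (0.94), Hbb-b1 (0.12) and Psmd4 (0.55). They also turned with print positions centred for Hba-a1 (0.34), Hbb-b1 (0.14), Atp5c1 (0.23) and Psma5 (0.014), and relative to all clones under CG03 scaling for Atp1b1 (-0.21). No paired analysis was possible because the mice of the groups are different animals and their replicate numbers only follow accession order.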
